A study of Mus musculus with 6 samples.

Results

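The genes described here are 45 mouse genes of mitosis and the spindle: the proliferation marker Mki67, mitotic cyclins and kinases, and genes of the kinetochore, the spindle, chromosome condensation, anaphase and cytokinesis. They were taken by symbol from the deposited expression table, which lists 30743 features. All 45 were found, all 45 passed the filter on low values, and each reached 1 FPKM or more in every sample. FPKM counts sequenced fragments relative to the length of the transcript and to the number of fragments mapped, so levels can be set side by side between genes.

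RNA was sequenced from Tri-PyMT cells, a mouse line from a breast tumour driven by the polyoma middle T oncogene. The line carries a fluorescent lineage tracer in which a Cre recombinase under the S100a4 (Fsp1) promoter switches the colour permanently from red (RFP) to green (GFP). Colour therefore records whether a cell or its ancestors turned that promoter on. GFP+ cells are labelled as having undergone epithelial-to-mesenchymal transition (EMT), and the label rests on that 1 promoter. All cells were grown in 10% serum and sorted by colour. The 3 groups were GFP+ cells after 7 days with 4 µM 4-hydroperoxy-cyclophosphamide (CTX), untreated GFP+ cells and untreated RFP+ cells. Each had 2 samples. Treated RFP+ cells are not analysed here, so the effect of the drug on RFP+ cells is not part of any comparison. Nothing in the labels tells whether replicates were separate cultures. The p-values therefore reflect sample-to-sample spread alone, and that spread may be technical.

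4-Hydroperoxy-cyclophosphamide is an activated form of cyclophosphamide that alkylates and crosslinks DNA. DNA damage stabilises the transcription factor p53, which raises Cdkn1a, an inhibitor of cyclin-dependent kinases. In dividing cells the genes of mitosis are transcribed together late in the cell cycle. The MuvB core bound to B-Myb, together with FoxM1, activates them, and the DREAM complex, which holds the same core with a pocket protein and E2F4, represses them in resting cells. Binding takes place at a short sequence near the start site, the cell cycle genes homology region (CHR), often with CCAAT boxes bound by NF-Y beside it.

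The letters of these elements were searched in the promoter windows of RefSeq (GRCm38.p6), which run from 250 bases before to 50 bases after the start. For the CHR element these were TTTGAA and TTCGAA on both strands, so that TTCAAA was also counted and TTCGAA is its own reverse complement. For the CCAAT box they were CCAAT and, on the other strand, ATTGG, and overlapping matches were counted separately. For each symbol only the first window listed was searched. A window was matched for 36 of the 45 members. It was not matched for Incenp, Ccna2, Spc24, Tpx2, Kif20a, Smc4, Cdc25c, Foxm1 and Aurkb. The CHR letters stood in 29 of the 36 windows (80.6%), against 5254 of 27025 windows of all genes (19.4%). Within 50 bases of the start they stood in 26 of the 36 members (72.2%), against 5.29% of all genes. CCAAT letters stood in 29 members (80.6%), against 37.9% of all genes. Both were present in 26 members (72.2%), against 7.7% of all genes. Birc5, Mad2l1, Nuf2 and Pttg1 (4 of 36, 11.1%) had neither in the window searched, against 50.3% of all genes. A match of letters is a description of the window and not a binding site.

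6 windows with the CHR letters are printed to show where these letters lie relative to CCAAT letters and the start, and that of Birc5 is printed as one without either. Each reads 5′ to 3′ on the gene's own strand, and capitals mark the letters of the CHR element and of CCAAT boxes. They are Aurka at chr2:172370521-172370820 on the minus strand, Ncapd2 at chr6:125191537-125191836 on the minus strand, Ube2c at chr2:164769679-164769978 on the plus strand, Anln at chr9:22389157-22389456 on the minus strand, Bub3 at chr7:131560120-131560419 on the plus strand, Mki67 at chr7:135716330-135716629 on the minus strand and Birc5 at chr11:117848987-117849286 on the plus strand.
Aurka: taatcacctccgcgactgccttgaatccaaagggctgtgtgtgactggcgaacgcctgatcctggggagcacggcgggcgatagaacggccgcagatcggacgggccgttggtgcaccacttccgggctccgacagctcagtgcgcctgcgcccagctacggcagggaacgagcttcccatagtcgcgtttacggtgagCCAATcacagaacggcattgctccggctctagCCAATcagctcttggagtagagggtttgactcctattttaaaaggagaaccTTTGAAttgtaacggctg
Ncapd2: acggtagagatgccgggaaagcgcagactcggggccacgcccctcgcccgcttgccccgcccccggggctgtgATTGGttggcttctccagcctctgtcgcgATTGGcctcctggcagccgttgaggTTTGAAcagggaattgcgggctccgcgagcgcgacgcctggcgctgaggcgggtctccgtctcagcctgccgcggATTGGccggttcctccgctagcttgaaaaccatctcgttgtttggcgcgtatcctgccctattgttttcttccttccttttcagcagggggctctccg
Ube2c: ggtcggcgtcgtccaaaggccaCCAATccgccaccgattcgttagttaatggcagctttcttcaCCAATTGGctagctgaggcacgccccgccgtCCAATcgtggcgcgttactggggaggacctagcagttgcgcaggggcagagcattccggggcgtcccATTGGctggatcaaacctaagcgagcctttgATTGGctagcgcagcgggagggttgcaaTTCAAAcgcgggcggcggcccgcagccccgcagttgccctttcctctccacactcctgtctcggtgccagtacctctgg
Anln: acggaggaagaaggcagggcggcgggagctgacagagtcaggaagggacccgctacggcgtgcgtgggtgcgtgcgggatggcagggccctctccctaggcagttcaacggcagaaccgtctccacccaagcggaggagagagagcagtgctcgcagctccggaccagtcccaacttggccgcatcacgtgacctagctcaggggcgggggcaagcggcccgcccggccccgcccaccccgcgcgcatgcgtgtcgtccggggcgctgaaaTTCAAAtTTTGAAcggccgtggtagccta
Bub3: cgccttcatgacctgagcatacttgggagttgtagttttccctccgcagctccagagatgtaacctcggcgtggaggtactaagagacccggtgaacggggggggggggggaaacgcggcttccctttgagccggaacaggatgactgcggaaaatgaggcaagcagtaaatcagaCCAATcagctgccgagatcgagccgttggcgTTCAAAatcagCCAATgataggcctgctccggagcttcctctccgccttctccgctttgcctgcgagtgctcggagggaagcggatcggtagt
Mki67: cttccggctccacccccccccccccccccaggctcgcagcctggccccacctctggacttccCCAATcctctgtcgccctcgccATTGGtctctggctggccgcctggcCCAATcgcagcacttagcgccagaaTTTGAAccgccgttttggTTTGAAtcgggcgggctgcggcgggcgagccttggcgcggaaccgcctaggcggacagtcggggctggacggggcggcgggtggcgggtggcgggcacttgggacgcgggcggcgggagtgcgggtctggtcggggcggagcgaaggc
Birc5: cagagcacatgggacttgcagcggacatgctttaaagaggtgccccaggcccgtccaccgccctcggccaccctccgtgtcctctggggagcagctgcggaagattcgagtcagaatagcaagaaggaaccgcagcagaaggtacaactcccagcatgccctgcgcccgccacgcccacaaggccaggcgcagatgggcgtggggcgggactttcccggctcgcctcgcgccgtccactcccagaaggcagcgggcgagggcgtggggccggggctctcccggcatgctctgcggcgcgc
In Aurka the CHR letters begin 33 bases after the start and in Ube2c 29 bases before it, with 2 and 6 CCAAT matches in the window. Anln holds 2 CHR matches, 1 on each strand, with a single base between them, and no CCAAT letters. In Mki67 and Ncapd2 the CHR letters lie farther from the start, at 116 and 98 bases before it in Mki67 and at 123 bases before it in Ncapd2.

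The 6 libraries were not on one scale. Size factors by the median ratio over 16561 genes above 0 in every sample were, on the log2 scale, 0.15 in both CTX-treated GFP+ samples. They were -0.43 and 0.03 in untreated GFP+ replicates 1 and 2, and 0.07 and 0.06 in untreated RFP+ cells. Untreated GFP+ replicate 1 therefore stood apart, and each result is given for the deposited FPKM and for FPKM divided by these factors (called scaled below). Over the 13080 genes tested, the median log2 change of CTX-treated over untreated GFP+ cells was 0.25 as deposited and -0.05 after scaling. Markers of the labelled types were set beside the labels. 6 epithelial markers (Cdh1, Epcam, Krt8, Krt18, Cldn4 and Esrp1) summed to 289 to 301 FPKM in CTX-treated GFP+, 138 to 280 FPKM in untreated GFP+ and 642 to 884 FPKM in RFP+ cells. Single markers went both ways. In CTX-treated against untreated GFP+ cells 4 of the 6 changes were positive as deposited and 3 after scaling, with 1 called higher. For CTX-treated GFP+ against RFP+ cells 5 were negative and 1 positive on either scale. The 8 mesenchymal markers were Vim, S100a4, Fn1, Cdh2, Col1a1, Col3a1, Dcn and Pdgfrb. S100a4 is the gene whose promoter switches the colour, so its level is no independent check of the label. The 8 summed to 4066 to 4124 FPKM in CTX-treated GFP+, 3325 to 4038 FPKM in untreated GFP+ and 2003 to 2516 FPKM in RFP+ cells. These sums rest on the most abundant markers: between CTX-treated and untreated GFP+ cells 6 of the 8 changes were negative, with 2 called lower (Col1a1 and Pdgfrb) and 0 higher, and the median was -0.22 as deposited and -0.57 after scaling. Of 6 leukocyte markers only Cd68 reached 1 FPKM: the 6 summed to 30.4 to 31.6 FPKM in CTX-treated GFP+, 3.49 to 6.84 FPKM in untreated GFP+ and 4.65 to 4.70 FPKM in RFP+ cells, and Cd3e was listed at 0 in all 6 samples. No endothelial marker exceeded 0.525 FPKM, no erythroid marker found 0.197 FPKM and no adipocyte marker 0.0933 FPKM.

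The mitosis and spindle genes were well expressed in all 3 groups. Birc5, which encodes survivin, was the most abundant member in every sample and averaged 278 FPKM over the 6 samples. Ube2c and Top2a followed at means of 123 and 120 FPKM, with sample ranges that overlap (90.1 to 159 FPKM and 88.0 to 145 FPKM). Espl1 and Cenpf were the lowest at a mean of 11.7 FPKM each, and the highest member exceeded the lowest 19.2-fold to 39.8-fold within a sample. The 45 genes together took 0.241% and 0.251% of the summed FPKM in CTX-treated GFP+ cells, 0.250% and 0.280% in untreated GFP+ cells, and 0.264% and 0.253% in RFP+ cells. On this share the CTX-treated samples overlapped with untreated GFP+ cells and lay just below RFP+ cells. In bulk RNA, fewer dividing cells and less mitotic RNA per cell cannot be told apart.

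**Figure D1:**
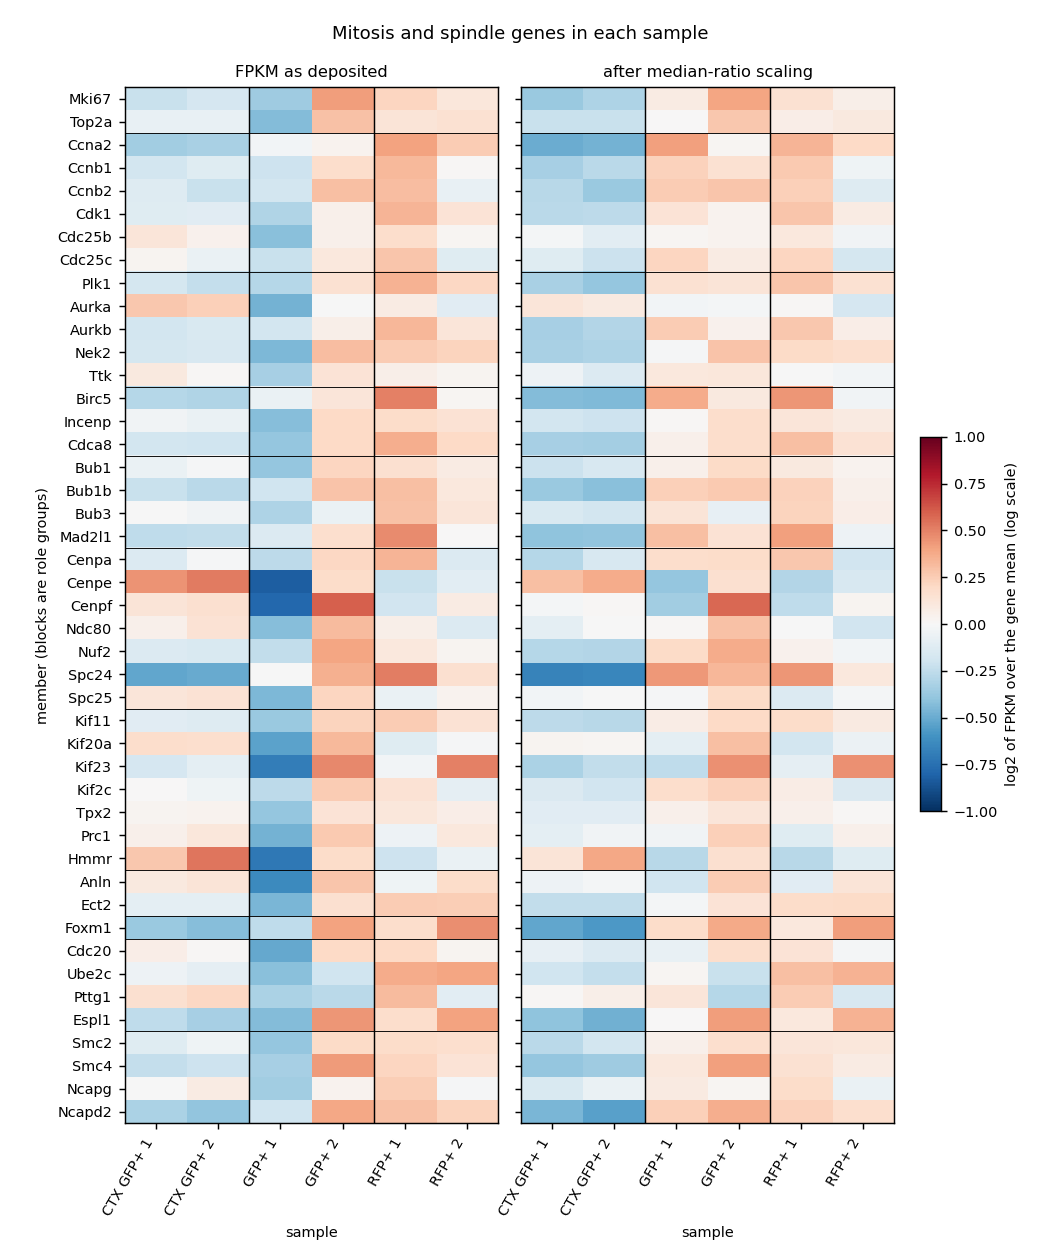
Heat maps of the 45 members (rows, in blocks by role) in the 6 samples (columns), as log2 of FPKM over the gene's mean on the log scale, for deposited values on the left and scaled values on the right. In the deposited values all 45 members are lower in untreated GFP+ replicate 1 than in replicate 2, while after scaling both CTX-treated samples are below both untreated GFP+ samples in 34 rows and above both in 2 (Aurka and Cenpe).

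The first comparison asks how mitotic transcripts differ between CTX-treated and untreated GFP+ cells. In the deposited FPKM 0 members rose and 0 fell at an adjusted p under 0.05, their median log2 change was 0.01, and single genes ran between -0.66 for Spc24 and 0.76 for Cenpe. Of all genes tested, 12.3% were called higher and 0.474% lower. At an unadjusted p under 0.05 limma marked 2 members higher and 1 lower, beside 3541 and 360 of the 13080 genes. After scaling those unadjusted counts were 0 members higher and 25 lower, beside 2413 and 2460 genes. After scaling, 10 members fell and 0 rose, against 8.04% of all genes lower and 11% higher, and the members' median was -0.34 beside -0.05 for all genes. The 10 were Mki67, Ccna2, Plk1, Cdca8, Bub1b, Nuf2, Spc24, Foxm1, Smc4 and Ncapd2. Both treated samples lay below both untreated GFP+ samples for 7 members as deposited and for 34 after scaling, against 12.4% and 38.2% of all genes. They lay above both for 6 members as deposited and for 2 after scaling, against 51.9% and 31% of all genes.

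Summed over the 45 members, CTX-treated GFP+ cells held 2178 ± 10.7 FPKM and untreated GFP+ cells 2223 ± 556 FPKM (SD, n = 2 each). The scaled sums were 1959 ± 9.97 FPKM in CTX-treated GFP+ and 2520 ± 68.2 FPKM in untreated GFP+ cells. The treated pair was tight on either scale, and the untreated pair was tight only after scaling.

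Of the general markers of dividing cells, Mki67, whose protein Ki-67 coats mitotic chromosomes, was at 37.8 and 39.4 FPKM in CTX-treated GFP+ cells, against 34.5 and 58.9 FPKM in untreated GFP+ cells. The treated values lay between those of the untreated samples. Its log2 change was -0.22 as deposited (SE 0.26, adjusted p = 0.608) and -0.57 after scaling (SE 0.13, adjusted p = 0.0451). Top2a, the DNA topoisomerase that untangles sister chromatids, was at 113 FPKM in both treated samples, against 88.0 and 145 FPKM in untreated GFP+ cells. It changed by -0.00045 as deposited (adjusted p = 0.9997) and by -0.35 after scaling (adjusted p = 0.117).

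Among the mitotic cyclins, Ccna2 (cyclin A2, which acts in S phase and up to mitotic entry) was the member of this group that scaling brought past the threshold. It was at 54.1 and 55.0 FPKM in CTX-treated GFP+ cells, against 67.6 and 70.7 FPKM in untreated GFP+ cells, with no overlap in the deposited values. The log2 change was -0.34 (SE 0.16, adjusted p = 0.210) as deposited and -0.69 (SE 0.16, adjusted p = 0.0433) after scaling. Ccnb1, the cyclin B that drives entry into mitosis, was at 56.4 and 58.9 FPKM in treated cells, against 55.6 and 72.5 FPKM in untreated GFP+ cells. Its partner Cdk1 was at 48.8 and 49.0 FPKM in treated cells, against 42.9 and 54.9 FPKM in untreated GFP+ cells. For both, the treated samples sat inside the untreated range. Their log2 changes were -0.14 for Ccnb1 and 0.01 for Cdk1 as deposited, and -0.49 (adjusted p = 0.0642) for Ccnb1 and -0.34 (adjusted p = 0.0925) for Cdk1 after scaling. Ccnb2 and the CDK1-activating phosphatases Cdc25b and Cdc25c passed the test on neither scale, and all 6 genes of the group had negative changes after scaling, against 3 as deposited.

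Of the 5 mitotic kinases 0 passed as deposited and 1, Plk1, after scaling. Plk1, which acts at centrosomes, kinetochores and in cytokinesis, was at 45.1 and 43.1 FPKM in CTX-treated GFP+ cells, against 41.8 and 56.6 FPKM in untreated GFP+ cells. It changed by -0.14 as deposited (adjusted p = 0.671) and by -0.49 after scaling (SE 0.10, adjusted p = 0.0324). Aurka, the kinase of centrosome maturation and spindle poles, was at 56.0 and 54.7 FPKM in treated cells, against 33.6 and 46.5 FPKM in untreated GFP+ cells. Both treated samples were above both untreated ones, and they stayed above after scaling. Its change did not pass the test, at 0.48 as deposited (SE 0.20, adjusted p = 0.173) and 0.13 after scaling (SE 0.10, adjusted p = 0.414). Aurkb, Nek2 and Ttk passed on neither scale, with changes between -0.10 and 0.15 as deposited and between -0.45 and -0.19 after scaling.

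Aurkb works within the chromosomal passenger complex, which corrects faulty attachments of chromosomes. Its partner Birc5 was at 224 and 222 FPKM in CTX-treated GFP+ cells, against 261 and 296 FPKM in untreated GFP+ cells, and the pairs did not overlap. The log2 change was -0.32 as deposited (SE 0.22, adjusted p = 0.372) and -0.67 after scaling (SE 0.21, adjusted p = 0.0814). Cdca8 (borealin) was at 47.6 and 47.1 FPKM in treated cells, against 41.4 and 62.0 FPKM in untreated GFP+ cells. Its treated values lay between the untreated ones as deposited, and its change was -0.44 after scaling (adjusted p = 0.0480). Incenp, the scaffold of the complex, changed by 0.07 as deposited and -0.28 after scaling and passed on neither scale.

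The spindle checkpoint holds back anaphase until all kinetochores are attached. Mad2l1, which encodes the checkpoint protein MAD2, was at 53.3 and 53.7 FPKM in CTX-treated GFP+ cells, against 57.8 and 71.4 FPKM in untreated GFP+ cells. Bub3 was at 63.7 and 62.2 FPKM in treated cells, against 51.4 and 61.1 FPKM in untreated GFP+ cells. As deposited the treated pair was thus below the untreated pair for Mad2l1 and above it for Bub3, and after scaling it was below for both. Neither passed the test, with scaled changes of -0.61 (adjusted p = 0.0704) for Mad2l1 and -0.18 (adjusted p = 0.324) for Bub3. Bub1b (BubR1) was called lower after scaling, by -0.62 (adjusted p = 0.0206). It had 25.9 and 25.2 FPKM in treated cells, against 26.4 and 36.9 FPKM in untreated GFP+ cells. Bub1 changed by 0.04 as deposited and -0.29 after scaling and passed on neither scale.

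The role group with the widest range of changes was the kinetochore, the protein assembly that joins centromeres to microtubules. Spc24, a subunit of the NDC80 complex, was at 15.2 and 15.4 FPKM in CTX-treated GFP+ cells, against 21.8 and 27.9 FPKM in untreated GFP+ cells. The pairs did not overlap on either scale, and the log2 change was -0.66 as deposited (SE 0.20, adjusted p = 0.0827) and -0.99 after scaling (SE 0.13, adjusted p = 0.0138). Nuf2, another NDC80 subunit, was at 32.8 and 32.5 FPKM in treated cells, against 30.4 and 47.3 FPKM in untreated GFP+ cells, with a change of -0.21 as deposited (adjusted p = 0.576) and -0.56 after scaling (adjusted p = 0.0273). The remaining subunits of the same complex did not pass: Ndc80 changed by 0.15 as deposited and -0.19 after scaling, and Spc25 by 0.24 and -0.10. Cenpa, the histone H3 variant that marks centromeres, was at 39.2 and 42.8 FPKM in treated cells, against 36.0 and 49.7 FPKM in untreated GFP+ cells. Cenpe, a kinesin that moves chromosomes to the metaphase plate, had 25.6 and 26.8 FPKM in treated cells, against 10.6 and 21.3 FPKM in untreated GFP+ cells. Both treated samples were above both untreated ones on either scale, yet the change of 0.76 as deposited (SE 0.30, adjusted p = 0.150) and 0.43 after scaling (SE 0.19, adjusted p = 0.169) did not pass. Cenpf changed by 0.21 as deposited and -0.11 after scaling, and its untreated GFP+ samples were the farthest apart of any member on the log2 scale, at 6.54 and 17.0 FPKM.

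None of the 7 spindle motors and microtubule proteins passed the test on either scale. Kif23, a kinesin of the central spindle, was at 54.6 and 57.4 FPKM in CTX-treated GFP+ cells, against 38.0 and 85.5 FPKM in untreated GFP+ cells. Prc1, which bundles central spindle microtubules, was at 85.5 and 89.3 FPKM in treated cells, against 59.3 and 98.7 FPKM in untreated GFP+ cells. For both genes the treated samples lay within the untreated range. Hmmr, a microtubule and hyaluronan binding protein, was at 68.9 and 82.6 FPKM in treated cells, against 34.8 and 64.8 FPKM in untreated GFP+ cells. Its treated samples were above both untreated ones as deposited but not after scaling, with changes of 0.66 (SE 0.29, adjusted p = 0.192) as deposited and 0.31 (SE 0.19, adjusted p = 0.290) after scaling. Kif11, Kif20a, Kif2c and Tpx2 changed by -0.05 to 0.27 as deposited and by -0.39 to -0.08 after scaling.

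For cytokinesis, Anln, which encodes the contractile ring protein anillin, was at 76.2 and 77.9 FPKM in CTX-treated GFP+ cells, against 45.8 and 86.5 FPKM in untreated GFP+ cells. Ect2, the activator of RhoA at the cleavage furrow, was at 27.6 and 27.5 FPKM in treated cells, against 21.5 and 32.9 FPKM in untreated GFP+ cells. Neither passed the test, and the treated values of both lay within the untreated range.

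The transcription factor gene Foxm1, an activator of the mitotic programme, had 26.2 and 25.2 FPKM in CTX-treated GFP+ cells, against 28.3 and 44.7 FPKM in untreated GFP+ cells. Both treated samples were below both untreated ones. The log2 change was -0.46 as deposited (SE 0.24, adjusted p = 0.263) and -0.80 after scaling (SE 0.14, adjusted p = 0.0252).

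Genes that act at the exit from mitosis did not pass the test on either scale. Cdc20, which activates the anaphase-promoting complex, was at 87.3 and 84.0 FPKM in CTX-treated GFP+ cells, against 58.5 and 95.3 FPKM in untreated GFP+ cells. Ube2c, the ubiquitin-conjugating enzyme that works with that complex, was at 116 and 113 FPKM in treated cells, against 90.1 and 105 FPKM in untreated GFP+ cells. Ube2c was higher in both treated samples as deposited, and its change was 0.23 as deposited (adjusted p = 0.388) and -0.12 after scaling (adjusted p = 0.528). Pttg1 (securin) changed by 0.46 as deposited (adjusted p = 0.159) and 0.12 after scaling, and Espl1 (separase) by -0.28 and -0.60 (adjusted p = 0.0624 after scaling).

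Condensin compacts mitotic chromosomes. Its subunit gene Ncapd2 was at 30.8 and 29.1 FPKM in CTX-treated GFP+ cells, against 33.4 and 49.9 FPKM in untreated GFP+ cells, without overlap. It changed by -0.43 as deposited (SE 0.22, adjusted p = 0.236) and by -0.78 after scaling (SE 0.10, adjusted p = 0.0121), which was the lowest adjusted p of the 45 members. Smc4, the ATPase core subunit, was at 57.7 and 59.0 FPKM in treated cells, against 54.2 and 91.8 FPKM in untreated GFP+ cells. Its change was -0.27 as deposited (adjusted p = 0.521) and -0.62 after scaling (adjusted p = 0.0363). The other ATPase Smc2 and the subunit Ncapg passed on neither scale, with scaled changes of -0.33 and -0.16.

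**Figure D2:**
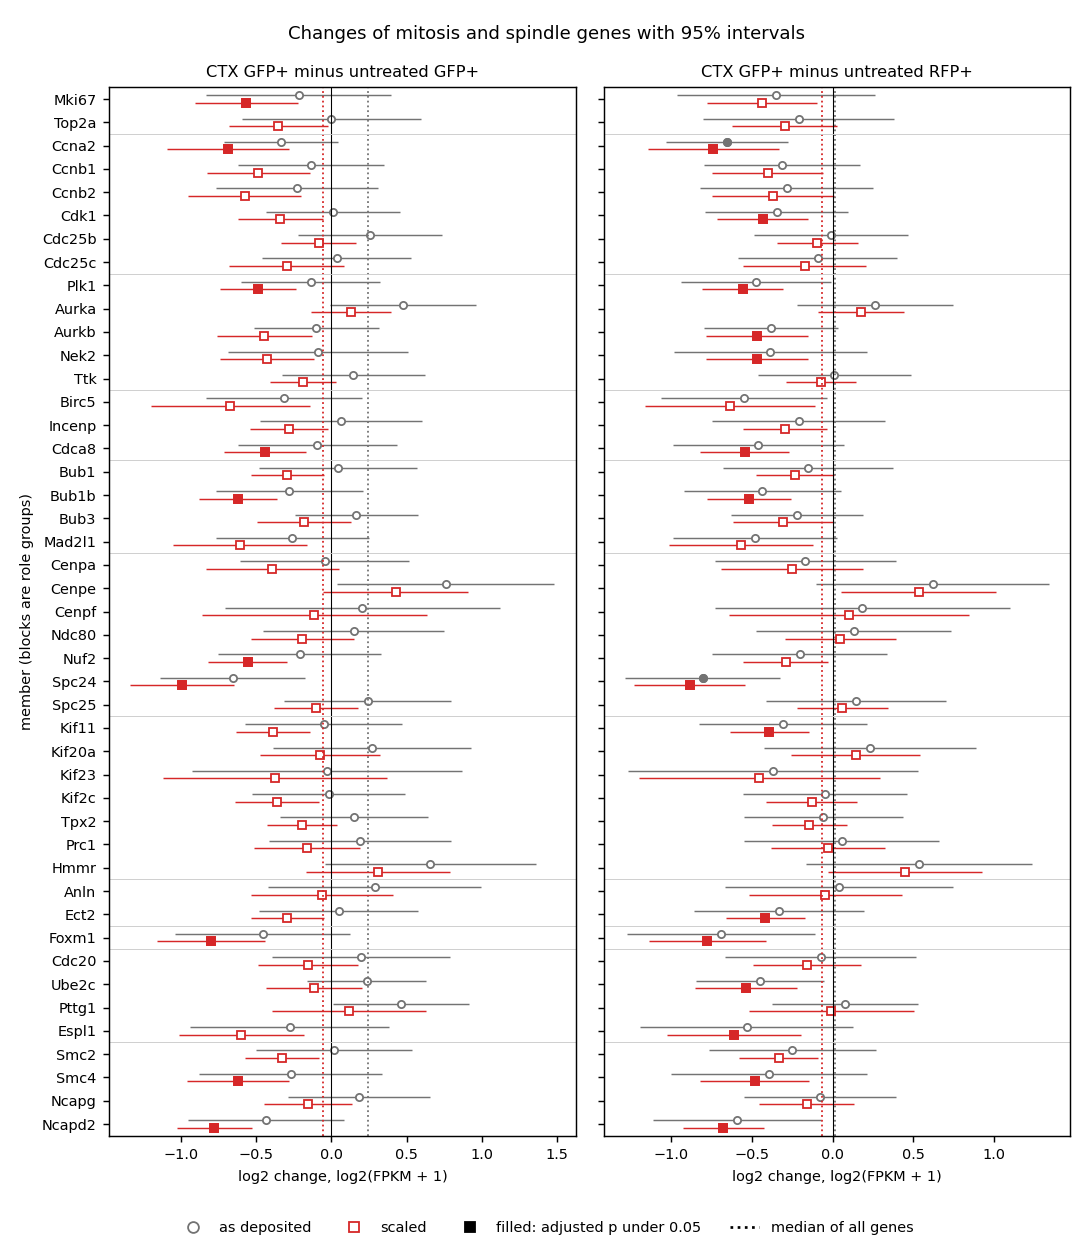
Log2 change on the log2(FPKM + 1) scale (horizontal axis) of each member (rows) in CTX-treated over untreated GFP+ cells on the left and in CTX-treated GFP+ over untreated RFP+ cells on the right, with 95% intervals from limma; grey circles are deposited values, red squares scaled values, and filled symbols have an adjusted p under 0.05. On the left 0 deposited and 10 scaled values are filled, on the right 2 and 15, and the dotted lines give the median of all genes on each scale.

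The deposited counts turned on untreated GFP+ replicates 1 and 2. Without replicate 1, 3 members were lower (Mki67, Smc4 and Ncapd2), against 2.06% of all genes, and 0 were higher. Without replicate 2, 15 members were higher, among them Aurka, Cenpe, Hmmr, Anln and Cdc20, against 43.2% of all genes, and 0 were lower. With scaling, leaving out replicate 1 gave 8 lower members, against 3.92% of all genes. Leaving out replicate 2 then gave 7 lower and 1 higher (Cenpe), against 10.2% and 11.8%. Over the 6 fits on rescaled values (median-ratio scaling, quantile normalization and 4 further forms of the scaling), Spc24, Nuf2 and Ncapd2 were lower in all 6. Ccna2, Plk1, Bub1b, Foxm1 and Smc4 were lower in 5 of the 6, Mki67 in 3 and Cdca8 in 1. In those of the 6 fits that kept every sample, 7% to 11.3% of all genes were lower. The share of all genes lower in every fit was not counted. These fits draw on the same samples, and all but the quantile fit use median-ratio scaling, so they are not independent.

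**Figure D3:**
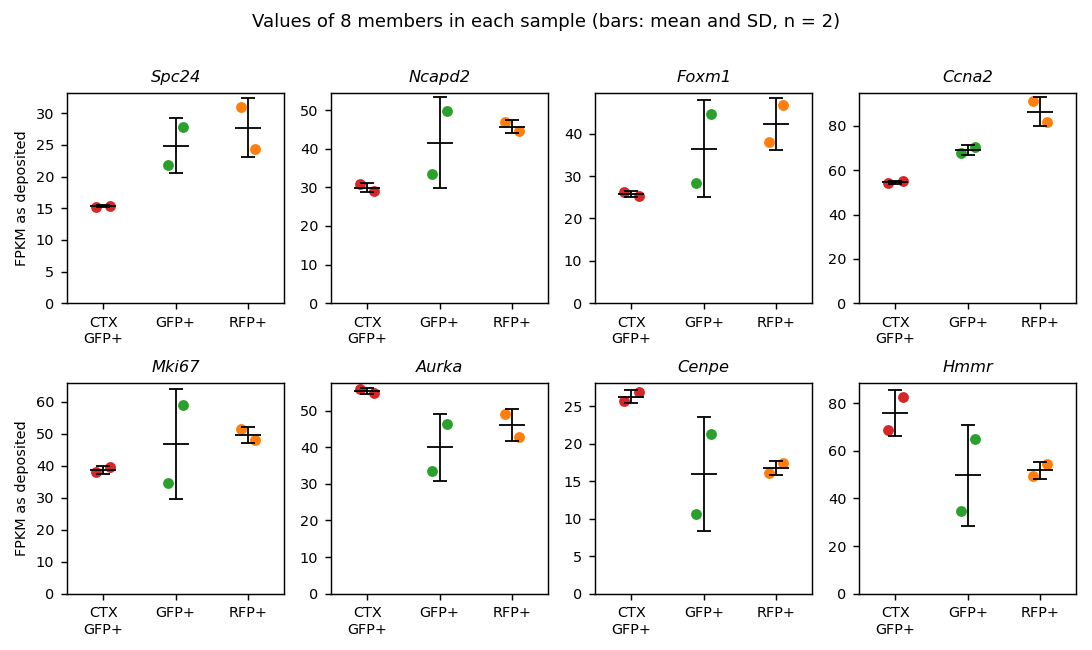
Deposited FPKM (vertical axes, from 0) of 8 members in each of the 3 groups; points are the samples, and bars give the mean and SD (n = 2). Spc24, Ncapd2, Foxm1 and Ccna2 are lowest in CTX-treated GFP+ cells, Aurka, Cenpe and Hmmr are highest there, and Mki67 in treated cells lies within the untreated GFP+ range.

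Ratios between members within a sample do not depend on the scale of the library. A few were formed after the values had been seen, from members toward opposite ends of the changes, so that their direction follows from the choice and they are given as a description with no test. Cenpe over Spc24 was 1.69 and 1.74 in CTX-treated GFP+ cells, against 0.485 and 0.762 in untreated GFP+ cells and 0.517 and 0.715 in RFP+ cells. Hmmr over Foxm1 was 2.63 and 3.28 in CTX-treated GFP+, 1.23 and 1.45 in untreated GFP+ and 1.30 and 1.16 in RFP+ cells. Both ratios were higher in the treated pair than in any untreated sample. The same held for Aurka over Plk1, at 1.24 and 1.27 in CTX-treated GFP+, 0.803 and 0.821 in untreated GFP+ and 0.760 and 0.731 in RFP+ cells. Spc25 over Spc24, 2 subunits that bind each other in the NDC80 complex, stood at 2.03 and 2.04 in CTX-treated GFP+, 0.955 and 1.18 in untreated GFP+ and 0.874 and 1.19 in RFP+ cells.

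The second comparison, untreated GFP+ against untreated RFP+ cells, asks whether cells marked as having passed through EMT differ in mitotic transcripts before any drug. It shares the untreated GFP+ samples with the first comparison. No member passed the test: 0 were higher and 0 lower, both as deposited and after scaling. Of all genes, 0.115% were higher and 1.78% lower as deposited, and 1.02% and 1.96% after scaling. Unadjusted p-values under 0.05 were reached by 0 higher and 1 lower member as deposited, beside 257 higher and 2059 lower genes of the 13080. After scaling they were reached by 1 higher and 1 lower member, beside 920 and 1125 genes. The members' median log2 change was -0.21 as deposited, beside -0.24 for all genes, and 0.05 after scaling, beside -0.01. As deposited 44 of the 45 changes were negative, beside 10580 of the 13080 genes. After scaling 27 of the 45 were positive, beside 6185 genes. Both untreated GFP+ samples lay below both RFP+ samples for 8 members as deposited and 2 after scaling, against 41.5% and 20.2% of all genes. They lay above both for 0 members as deposited and 9 after scaling, against 4.95% and 16.3% of all genes.

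Ube2c stood lowest on both scales: it was at 90.1 and 105 FPKM in untreated GFP+ cells, against 155 and 159 FPKM in RFP+ cells. The pairs did not overlap, and the log2 change was -0.69 as deposited (SE 0.17, adjusted p = 0.118) and -0.42 after scaling (SE 0.12, adjusted p = 0.197). Ccna2 was at 67.6 and 70.7 FPKM in untreated GFP+ cells, against 91.1 and 81.9 FPKM in RFP+ cells, and its change was -0.32 as deposited (adjusted p = 0.327) and -0.05 after scaling. Mki67 was at 34.5 and 58.9 FPKM in untreated GFP+ cells, against 51.4 and 47.9 FPKM in RFP+ cells, and the groups overlapped. Scaled sums over the members were 2520 ± 68.2 FPKM in untreated GFP+ and 2485 ± 144 FPKM in RFP+ cells (SD, n = 2 each). With untreated GFP+ replicate 2 left out of the deposited values, 25 members were lower, against 35% of all genes.

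The members also show how far the untreated GFP+ pair was apart. All 45 were higher in replicate 2 than in replicate 1 as deposited, by a median log2 of 0.58 beside 0.38 for 11244 expressed genes, ranging from 0.047 for Pttg1 to 1.38 for Cenpf. After scaling 32 were higher and 13 lower, with a median of 0.12 beside -0.076 for the expressed genes. Between the CTX-treated samples the largest gap of any member was 0.26 (Hmmr), and between the RFP+ samples the gaps ran between -0.48 for Birc5 and 0.53 for Kif23.

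The third comparison sets CTX-treated GFP+ against untreated RFP+ cells. It combines the drug and the colour, which cannot be told apart in it, and it shares samples with both comparisons above. The size factors of these 4 samples were close to each other. As deposited 2 members fell, Ccna2 and Spc24, and 0 rose, against 5.99% of all genes lower and 11% higher. After scaling 15 members fell and 0 rose, against 16.2% lower and 15% higher. The members' median change was -0.22 as deposited, beside 0.01 for all genes, and -0.31 after scaling, beside -0.07. Both treated samples lay below both RFP+ samples for 28 members as deposited and 32 after scaling, against 37.7% and 43.4% of all genes. They lay above both for 6 members as deposited and 4 after scaling, against 39.5% and 34.4% of all genes.

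Spc24 was at 15.2 and 15.4 FPKM in CTX-treated GFP+ cells, against 31.0 and 24.4 FPKM in RFP+ cells, with a log2 change of -0.81 (SE 0.20, adjusted p = 0.0389) as deposited and -0.89 (adjusted p = 0.0108) after scaling. Ccna2 was at 54.1 and 55.0 FPKM in CTX-treated GFP+ cells, against 91.1 and 81.9 FPKM in RFP+ cells, with a change of -0.65 (SE 0.16, adjusted p = 0.0352) as deposited and -0.74 (adjusted p = 0.0257) after scaling. Neither gene's groups overlapped. Foxm1 was at 26.2 and 25.2 FPKM in CTX-treated GFP+ cells, against 38.0 and 46.7 FPKM in RFP+ cells, and changed by -0.69 (adjusted p = 0.0977) as deposited and -0.78 (adjusted p = 0.0169) after scaling. Ncapd2, the condensin subunit, was at 30.8 and 29.1 FPKM in CTX-treated GFP+ cells, against 46.9 and 44.6 FPKM in RFP+ cells. It changed by -0.59 (adjusted p = 0.109) as deposited and -0.68 (adjusted p = 0.00965) after scaling. The other members that were lower after scaling were Cdk1, Plk1, Aurkb, Nek2, Cdca8, Bub1b, Kif11, Ect2, Ube2c, Espl1 and Smc4.

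By role, and after scaling, the calls fell as follows. Of the 5 mitotic kinases 3 fell (Plk1, Aurkb and Nek2), while Aurka changed by 0.26 as deposited (adjusted p = 0.404) and 0.18 after scaling (adjusted p = 0.241). At the kinetochore 1 of 7 fell, Spc24, and Cenpe stood at 25.6 and 26.8 FPKM in CTX-treated GFP+ cells, against 16.0 and 17.4 FPKM in RFP+ cells. Its change of 0.62 as deposited (adjusted p = 0.203) and 0.53 after scaling (adjusted p = 0.0871) did not pass, although the pairs did not overlap. Of the 7 spindle motors and microtubule proteins 1 fell, Kif11, and Hmmr changed by 0.54 as deposited (adjusted p = 0.251) and 0.45 after scaling (adjusted p = 0.126). Of the 4 anaphase genes Ube2c and Espl1 fell, and 2 of 4 condensin genes fell. Lower too were 2 of 6 genes of the cyclin group, 1 of 3 chromosomal passenger partners and 1 of 4 checkpoint genes. The same held for 1 of 2 cytokinesis genes and for Foxm1, and for 0 of the 2 general markers of dividing cells. Of all genes 16.2% were lower, and groups this small cannot show a difference between roles. Birc5, at 224 and 222 FPKM in CTX-treated GFP+ cells against 386 and 276 FPKM in RFP+ cells, changed by -0.55 as deposited (adjusted p = 0.130) and -0.64 after scaling (adjusted p = 0.0708).

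The 2 deposited calls were lost without either RFP+ sample and without either CTX-treated sample, when 0 members were lower. Leaving out either untreated GFP+ sample, which is not part of this comparison but enters the pooled spread, gave 13 lower and 2 higher members (Cenpe and Hmmr), against 16% of all genes lower and 21.3% higher. 9 members were lower in all 6 fits on rescaled values: Ccna2, Cdk1, Plk1, Aurkb, Cdca8, Bub1b, Spc24, Foxm1 and Ncapd2. In those of the 6 fits that kept every sample, 13.6% to 19.8% of all genes were lower. The share of all genes lower in every fit was not counted, and the fits are not independent. None of them left out a CTX-treated GFP+ or RFP+ sample, which are the samples compared here. Apart from the quantile fit and the scaling over tested genes, they shared the same log2 changes and differed in the estimated spread.

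**Figure D4:**
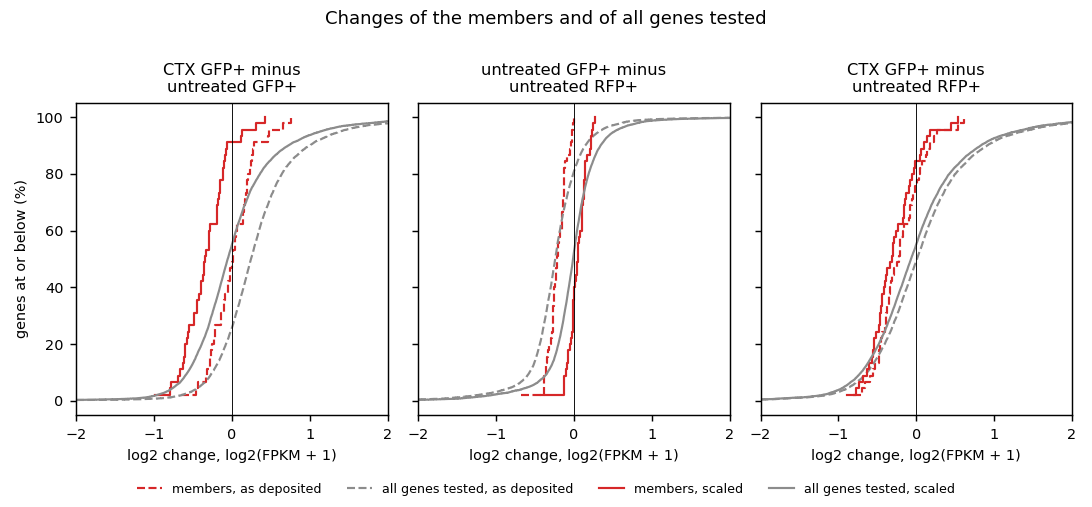
Cumulative share of genes (vertical axis, percent) at or below each log2 change on the log2(FPKM + 1) scale (horizontal axis, shown between -2 and 2) for the members in red and all 13080 genes tested in grey, dashed as deposited and solid after scaling, in the 3 comparisons. In CTX-treated over untreated GFP+ cells the members' median lies to the left of that of all genes on both scales (0.01 against 0.25, and -0.34 against -0.05), and in untreated GFP+ over RFP+ cells the medians lie close (-0.21 against -0.24, and 0.05 against -0.01).

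Promoter letters were set beside the changes. In CTX-treated over untreated GFP+ cells the 29 members with CHR letters had a median log2 change of 0.04 as deposited and -0.29 after scaling, and the 7 without had -0.14 and -0.49. The group with CHR letters ran between -0.43 and 0.66 as deposited, which spans the median of the other group. Ncapd2 and Aurka, both with CHR letters printed above, lay toward opposite ends of the 45, at -0.43 and 0.48 as deposited. The 7 members without CHR letters ran between -0.32 and 0.76 as deposited and between -0.67 and 0.43 after scaling. Among these 7, Nuf2 and Birc5 had scaled changes of -0.56 and -0.67, and Cenpe one of 0.43.

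The wider mitotic programme was read from a longer list. Of 75 other mitosis genes, 1 was lower as deposited in CTX-treated against untreated GFP+ cells and 21 after scaling, against 0.474% and 8.04% of all genes. None was higher on either scale, against 12.3% as deposited and 11% after scaling of all genes. The list's median log2 change was 0.01 as deposited and -0.30 after scaling, beside 0.25 and -0.05 for all genes. Against RFP+ cells 11 were lower as deposited and 28 after scaling, against 5.99% and 16.2% of all genes. As deposited 0 were higher and after scaling 1 (Sgol2), against 11% and 15% of all genes. Between untreated GFP+ and RFP+ cells 0 passed on either scale. Lmnb1, the nuclear lamina protein lamin B1, was at 22.2 and 20.5 FPKM in CTX-treated GFP+, 45.4 and 45.7 FPKM in untreated GFP+ and 80.5 and 66.7 FPKM in RFP+ cells. It fell in treated against untreated GFP+ cells by 1.06 on the log2 scale as deposited (SE 0.17, adjusted p = 0.0124) and by 1.40 after scaling (adjusted p = 0.0133). Pkmyt1, a kinase that inhibits CDK1, was at 10.3 and 11.0 FPKM in CTX-treated GFP+, 15.6 and 19.6 FPKM in untreated GFP+ and 21.4 and 21.9 FPKM in RFP+ cells. Its change against untreated GFP+ cells was -0.66 as deposited (adjusted p = 0.0584) and -0.995 after scaling (adjusted p = 0.00711). Tubb5, a beta-tubulin whose reads may be shared with close relatives of its family and whose value is therefore uncertain, was at 269 and 260 FPKM in CTX-treated GFP+, 483 and 406 FPKM in untreated GFP+ and 669 and 527 FPKM in RFP+ cells. For all 3 the treated pair was the lowest of the groups.

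A list of 15 genes held those of the DREAM and B-Myb complexes together with NF-Y subunits. In CTX-treated against untreated GFP+ cells 0 passed as deposited and 5 were lower after scaling, against 0.474% and 8.04% of all genes lower. On either scale 0 were higher, against 12.3% and 11% of all genes. The 5 were Mybl2, Lin9, E2f4, Rbl1 and the NF-Y subunit gene Nfyc. Mybl2, which encodes B-Myb, was at 8.27 and 8.17 FPKM in CTX-treated GFP+, 11.3 and 13.7 FPKM in untreated GFP+ and 21.4 and 20.7 FPKM in RFP+ cells. The 3 groups did not overlap. Its change in CTX-treated GFP+ cells was -0.54 as deposited (adjusted p = 0.0922) and -0.87 after scaling (adjusted p = 0.00975) against untreated GFP+, and -1.26 as deposited (adjusted p = 0.00602) against RFP+ cells. Nfyc, an NF-Y subunit, was at 20.1 and 19.6 FPKM in CTX-treated GFP+, 29.1 and 28.1 FPKM in untreated GFP+ and 45.5 and 35.2 FPKM in RFP+ cells. Nfyb, another NF-Y subunit, was at 15.3 and 14.6 FPKM in CTX-treated GFP+, 6.17 and 11.1 FPKM in untreated GFP+ and 10.8 and 11.5 FPKM in RFP+ cells. The treated pair was thus lowest for Nfyc and highest for Nfyb, whose change did not pass on either scale.

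The anaphase-promoting complex is the ubiquitin ligase that Cdc20 and Ube2c serve. Of its 16 genes 0 passed in CTX-treated against untreated GFP+ cells as deposited. After scaling 3 were lower (Anapc1, Anapc5 and Anapc13), against 0.474% as deposited and 8.04% after scaling of all genes lower. On either scale 0 were higher, against 12.3% and 11% of all genes. Anapc5 was at 211 and 190 FPKM in CTX-treated GFP+, 267 and 356 FPKM in untreated GFP+ and 367 and 324 FPKM in RFP+ cells. It changed by -0.62 as deposited (adjusted p = 0.105) and -0.97 after scaling (adjusted p = 0.0147) against untreated GFP+ cells. Anapc13 changed by -0.36 as deposited and -0.71 after scaling (adjusted p = 0.0181), and Anapc10 by 0.30 and 0.02, without passing.

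Targets of p53 are given beside these genes because arrest after DNA damage runs through them. 8 of 11 were higher as deposited in CTX-treated against untreated GFP+ cells and 7 after scaling, against 12.3% and 11% of all genes, with medians of 2.09 and 1.77. Cdkn1a was at 265 FPKM in both CTX-treated GFP+ samples, against 8.19 and 55.9 FPKM in untreated GFP+ cells and 16.5 and 58.7 FPKM in RFP+ cells. It rose against untreated GFP+ cells by 3.54 on the log2 scale as deposited (SE 0.88, adjusted p = 0.0452), and after scaling the change of 3.21 did not pass (adjusted p = 0.0669). Ccng1, another p53 target, was at 173 and 176 FPKM in CTX-treated GFP+, 16.7 and 49.3 FPKM in untreated GFP+ and 34.6 and 57.4 FPKM in RFP+ cells, and rose against untreated GFP+ cells by 2.56 (adjusted p = 0.0197). Their part in the values of the mitosis genes was not tested.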

How the data were processed

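RNA from 6 sorted samples was measured by RNA-seq. The authors deposited 1 table of FPKM values per gene symbol and sample; the submitters' processing notes name CASAVA 1.8.2, FastQC, TopHat, Cufflinks, HTSeq and the mm9 build, with their roles, order and settings not given in the sources used here. Per the labels' protocols, libraries were made from sorted cells with a TruSeq RNA kit, which does not mark strand, so reads from overlapping genes on opposite strands cannot be told apart. The table holds no counts, so depth and counting error are unknown. 25 features are listed under symbols turned into dates and are not members.

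The 13080 genes that reached an FPKM of 1 in 2 or more samples entered limma (version 3.58.1, R 4.3.3) as log2(FPKM + 1), with a mean-variance trend, all 6 samples in one fit (3 residual degrees of freedom), two-sided moderated tests and Benjamini-Hochberg adjustment over all genes at 0.05. The pseudocount of 1 understates changes of low genes. Scaled values were divided by median-ratio size factors. Replicate numbers were not treated as pairs. Other settings were other pseudocounts, filters, quantile normalization, no trend, only the 4 samples compared, a replicate block and leaving out each sample.

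The members and gene lists were chosen with earlier results of these data known. Values by sample are given for members past the threshold as deposited, for the 2 most abundant members of each role group, and for Mki67, Top2a, Cdk1, Ccnb1 and Foxm1. Up to 3 genes with the lowest p are given from each further list. Other members described by sample (Cenpe, Cenpf, Hmmr, Bub1b) were chosen after their values were seen. Promoters were printed for 6 named members with CHR letters and 1 without, by order of p. Figures were drawn in Python 3.11.15 with matplotlib 3.10.9.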

Additional observations from a re-analysis of the deposited data

How the results depend on the processing

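For CTX-treated against untreated GFP+ cells, 0 members were lower as deposited, against 0.474% of all genes. Median-ratio scaling gave 10 lower members, against 8.04%. Quantile normalization gave 8, against 11.3%, and the scaling over tested genes 8, against 7%. The replicate block gave 1 lower member, against 2.15% of all genes, and 2 higher, against 20.8%. Scaling with the block gave 13 lower, against 10.7%. Scaling without untreated GFP+ replicate 2 gave 1 higher member. The median change was 0.01 as deposited, -0.34 with scaling, -0.27 with quantile normalization, -0.39 and -0.28 with scaling without untreated GFP+ replicates 1 and 2, -0.34 with scaling and the block, and -0.28 with scaling over tested genes. Called genes numbered 1669 as deposited, 900 with the filter at 5 FPKM, 2881 with quantile normalization, 699 with only the 4 samples compared, 2999 with the replicate block, 2874 with scaling without untreated GFP+ replicate 2 and 3115 with scaling and the block. Leaving out each sample in turn gave 0 to 15 higher and 0 to 3 lower members, medians of -0.27 to 0.29, and 443 to 5852 called genes.

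For untreated GFP+ against RFP+ cells, called genes numbered 248 as deposited, 29 without a filter, 130 with the filter at 5 FPKM, 390 with scaling, 112 with only the 4 samples, 959 with the replicate block, 87 with scaling without untreated GFP+ replicate 1 and 434 with scaling and the block. Median changes were 0.10 with quantile normalization, 0.11 with scaling without untreated GFP+ replicate 1 and 0.070 with scaling over tested genes. Leaving out each sample gave 0 higher and 0 to 25 lower members, medians of -0.49 to 0.077 and 1 to 4737 called genes.

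For CTX-treated GFP+ against RFP+ cells, lower members numbered 2 as deposited, 1 without a filter, 15 with scaling, 9 with quantile normalization, 13 with only the 4 samples, 3 with the replicate block, 18 and 19 with scaling without untreated GFP+ replicates 1 and 2, 17 with scaling and the block and 10 with scaling over tested genes. Of all genes, 5.99% were lower as deposited, 1.28% without a filter, 16.2% with scaling and 18% with quantile normalization. The share was 15.9% with only the 4 samples and 9.96% with the replicate block. With scaling and the block it was 19.8%, and with scaling over tested genes 13.6%. Higher members numbered 1 with quantile normalization, against 14.9% of all genes, and 2 with only the 4 samples, against 21.3%. Scaling with the block gave 2 higher, against 17.5%. Called genes numbered 2221 as deposited, 1319 with the filter at 5 FPKM, 4081 with scaling, 4303 with quantile normalization, 4865 with only the 4 samples, 3527 with the replicate block, 5218 and 5219 with scaling without untreated GFP+ replicates 1 and 2, 4884 with scaling and the block and 4043 with scaling over tested genes. Leaving out each sample gave 0 to 2 higher and 0 to 13 lower members, medians of -0.28 to -0.17 and 286 to 4877 called genes.

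Same-numbered samples are not tied by the labels, and for that reason the numbers were not taken as pairs. Their scaled deviations from the group mean over 11244 genes correlated at 0.708 between untreated GFP+ and RFP+ cells. The values were 0.010 between CTX-treated and untreated GFP+ cells and -0.0073 between CTX-treated GFP+ and RFP+ cells. Same-numbered untreated samples thus deviated together, which the main fit does not model. Scaling without an untreated GFP+ sample, with the block and over tested genes was added after the data were seen. The causes of these differences were not tested. Precision is limited by 2 samples a group and 3 residual degrees of freedom. Where 1 sample is left in a group, it is assumed to vary like the others.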
